A study of Mus musculus with 2 samples.

Results

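The genes described here are 10 regulators of the decision between division and arrest in G1, namely the CDK inhibitors *Cdkn1a*, *Cdkn1b*, *Cdkn2a*, *Cdkn2b*, *Cdkn2c* and *Cdkn2d*, the gene of p53 (*Trp53*), and the D cyclins *Ccnd1*, *Ccnd2* and *Ccnd3*. They were chosen by symbol, and all 10 were present among the 28000 genes of the count tables. Their counts were read in each cell class of 2 single-cell libraries, 1 HIRA WT and 1 HIRA KO.

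The libraries were made on the 10× Chromium 3′ platform from live tdTomato+ cells sorted from mouse trunk skin at E15.5. WT embryos were *TyrCre::Hira* wt/wt:tdTomato and KO embryos *TyrCre::Hira* fl/fl:tdTomato, and both carried Cre and the *Rosa26-LSL-tdTomato* reporter. The embryo work used *TyrCreB*, an autosomal transgene in which the *Tyr* promoter drives Cre. This promoter is active in the melanocytic lineage and also in some other lineages, so that the sorted cells included other types. The sample labels give a mixed strain background close to C57BL/6J, where the paper names C57Bl/6 for the *Hira* and Cre lines. Littermates were processed together. The paper describes further embryos of each genotype, which were not among the libraries read here. Each library was taken to be 1 embryo, and there was no replicate among them. The WT library held 7073939 UMIs in 1546 barcodes, of which 1540 were kept as cells with a median of 3967.5 UMIs. The KO library held 5049514 UMIs in 846 barcodes, of which 828 were kept with a median of 5204.5 UMIs. The libraries shared 0 barcodes.

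Levels are given as the UMIs of a gene per 1000000 UMIs of the class of cells (CPM), and ranges in parentheses are 95% intervals that cover counting error only. With 1 library per genotype no difference was tested, and values are described as higher or lower in these libraries.

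The targeted gene was read first. *Hira* had 82 UMIs in all WT cells, or 11.6 CPM, and 50 in all KO cells, or 10.0 CPM. In melanoblast-like cells it had 35 WT UMIs (13.8 CPM, 9.63 to 19.2) and 3 KO UMIs (3.53 CPM, 0.728 to 10.3), which gives a log2 ratio of -1.97 (-4.32 to -0.30). It had 18 and 9 UMIs in WT and KO glial-like cells and 8 and 17 in mesenchymal-like cells, and no fall was detectable there at this depth. The exons removed from the floxed allele are not given in the sources used here, and a 3′ tag that lies outside them does not report the deletion. *Xist*, expressed from the inactive X, had 6119 UMIs in melanoblast-like cells of the WT library and 2 in those of the KO library. The Y-linked *Eif2s3y* had 0 and 47. The WT library was therefore female and the KO library male, and genotype, sex and library cannot be told apart in any comparison below.

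Cells of both libraries were clustered together without the 10 genes and without the other genes of their pathway, so that their levels did not shape the classes. The 20 clusters gave 11 classes, each named from a list of markers, and 1 cluster stayed unnamed. The melanoblast-like class held 535 WT and 139 KO cells. Its pigment cell markers summed to 5755 CPM in WT and 5462 CPM in KO, with *Dct*, which encodes dopachrome tautomerase, the most abundant, and 8 of 8 were found in WT and 7 of 8, without *Tyrp1*, in KO. The glial-like class held 447 WT and 254 KO cells, with 10 of 10 markers found in each library and *Fabp7* the most abundant. The mesenchymal-like class held 220 WT and 260 KO cells, with 9 of 9 markers found and *Col1a2* the most abundant. Smaller classes had at least 20 cells in 1 library only. They were macrophage-like (96 WT, 19 KO), mast cell-like (92, 3), keratinocyte-like (12, 81), monocyte-like (50, 16), adipocyte-like (43, 8) and endothelial-like (21, 8) cells.

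The clusters of a class were filled differently by the libraries. WT melanoblast-like cells lay in clusters 0 (164 cells, led by *Pmel*), 1 (200, led by *Mt2* and *Rapgef4*, with 4 of 8 melanoblast markers raised but none among its 10 leading genes) and 2 (171, cycling). KO melanoblast-like cells lay mostly in cluster 0, with 85 cells there, 11 in cluster 1 and 43 in cluster 2. WT mesenchymal-like cells lay mostly in cluster 3 (172 cells, led by *Crabp1* and *Twist2*), and KO ones in clusters 12 (122, led by *Mfap4* and *Acta2*) and 3 (104). Within the glial-like class, cluster 4 held the most cells in each library, 163 WT and 85 KO. Cluster 5 held 43 WT and 62 KO cells. Ratios of clusters are therefore given for some of the genes beside those of the class.

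As background, D cyclins bind CDK4 and CDK6 in response to mitogens, and the active complexes phosphorylate RB proteins and release E2F factors, which opens the way to S phase. The INK4 inhibitors, encoded by *Cdkn2a* to *Cdkn2d*, bind CDK4 and CDK6 themselves, whereas the Cip/Kip inhibitors, encoded by *Cdkn1a*, *Cdkn1b* and *Cdkn1c*, bind cyclin-CDK complexes. p53 is a transcription factor stabilised by DNA damage and other stress, and *Cdkn1a* is its best known target in cell cycle arrest. In the skin, *Cdkn2a* is a melanoma susceptibility locus and a brake on melanocyte proliferation.

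*Cdkn1a* encodes p21, the Cip/Kip inhibitor induced by p53. Among classes with at least 20 cells in the library, its level was highest in immune and epidermal cells and low in glial-like cells. In mast cell-like cells of the WT library it stood at 215 CPM (166 to 275) and in keratinocyte-like cells of the KO library at 214 CPM (183 to 250). Macrophage-like and monocyte-like WT cells followed at 156 CPM (126 to 191) and 132 CPM (89.1 to 189). The intervals of neighbours among these 4 values overlapped, and all 4 intervals lay above those of melanoblast-like, mesenchymal-like and glial-like cells.

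In melanoblast-like cells *Cdkn1a* had 131 WT UMIs, or 51.7 CPM (43.3 to 61.4), and 27 KO UMIs, or 31.8 CPM (20.9 to 46.2). It had 42 WT UMIs, or 25.7 CPM (18.5 to 34.7), and 12 KO UMIs, or 10.0 CPM (5.19 to 17.5), in glial-like cells. Its level was thus lower in the KO library in both classes, with log2 ratios of -0.70 (-1.36 to -0.10) and -1.35 (-2.41 to -0.40), and the glial-like value was the lowest among classes with at least 20 cells and any UMI of the gene. The sign was the same under all 11 alternatives for both classes, but the size was not. The melanoblast-like value was -1.80 with at least 500 genes asked of each cell, where 78 of the 139 KO cells left the class. Of the 61 KO cells then in the class, 44 lay in cycling clusters, against 158 of 534 WT cells. *Cdkn1a* was lower in cycling melanoblast-like cells of both libraries, as given below. The glial-like value was -2.85 in thinned cells. Markers of other classes moved with these values. Mast cell markers, with *Cma1* the most abundant, fell from 120 to 18.8 CPM in melanoblast-like cells, where 6 of 8 were found in WT and 5 of 8 in KO and *Fcer1a* and *Ms4a2* were at 0 in both. In glial-like cells they fell from 128 CPM, with 6 of 8 found, to 26.8 CPM, with 4 of 8 found and *Cpa3* the most abundant. Erythroid, mesenchymal and keratinocyte markers rose in melanoblast-like cells, from 78.6 to 1120, 137 to 595 and 69.9 to 533 CPM, as given in full with *Cdkn1c* below. The part of these markers in the ratios was not tested. In mesenchymal-like cells 45 WT and 53 KO UMIs gave 41.7 and 34.5 CPM, and the log2 ratio of -0.27 (-0.87 to 0.33) did not exclude 0. In melanoblast-like cells the WT levels of each cluster gave 51.2 expected KO UMIs against the 27 found. In cluster 0 alone the levels were 87.9 CPM in WT and 46.7 CPM in KO, with a log2 ratio of -0.91 (-1.68 to -0.19). Cluster 2, with 23 WT and 2 KO UMIs, had a log2 ratio of -1.82 (-4.95 to 0.20), and cluster 1, with 44 and 3 UMIs, one of 0.13 (-2.20 to 1.77), so that the interval excluded 0 in cluster 0 only. In glial-like cells the log2 ratio within clusters was -1.35, and cluster 9, with 4 and 3 UMIs, had the opposite sign.

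The direction was not shared by all classes. Macrophage-like cells had 92 WT UMIs of *Cdkn1a* (156 CPM) and 9 KO UMIs (52.5 CPM, 24.0 to 99.6), which gives a log2 ratio of -1.57 (-2.74 to -0.58). This value rests on 19 KO cells, and mesenchymal markers moved with it, from 134 CPM in WT to 2857 CPM in KO, as given in full with *Cdkn1c* below. Their part in the ratio was not tested. Monocyte-like cells had 30 and 23 UMIs, or 132 and 239 CPM, with a log2 ratio of 0.86 (0.01 to 1.69). Neutrophil markers, with *S100a8* the most abundant, moved with it, from 2100 CPM in WT monocyte-like cells, with 3 of 7 found and *Ngp*, *Camp*, *Ltf* and *Retnlg* at 0, to 8931 CPM in KO, with 5 of 7 found and *Ltf* and *Retnlg* at 0. Their part in the ratio was not tested. Keratinocyte-like cells had 10 and 163 UMIs, or 120 and 214 CPM, and there the interval of the ratio, -0.08 to 1.92, included 0. Lower *Cdkn1a* in KO was thus seen in macrophage-like as well as in glial-like and melanoblast-like cells, and higher *Cdkn1a* in monocyte-like cells.

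Shares of cells with a UMI of *Cdkn1a* in glial-like cells were 8.28% of 447 WT and 3.54% of 254 KO cells at median depths of 3385 and 4208 UMIs. After each cell was thinned to 2000 UMIs they were 5.37% of 410 WT cells (3.39 to 8.01) and 0.813% of 246 KO cells (0.0986 to 2.91). Mast cell-like WT cells, at a median of 2762.5 UMIs, had a UMI in 41.3% of 92 cells and in 27.3% of 66 after thinning. At 0.0472 UMIs per cell, *Cdkn1a* in KO glial-like cells cannot be told from free RNA.

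*Cdkn1b* encodes p27, the Cip/Kip inhibitor that holds cells in quiescence. It was low in all classes with at least 20 cells, from 11.9 CPM in WT macrophage-like cells (4.77 to 24.4) to 30.8 CPM in WT monocyte-like cells (12.4 to 63.5). The intervals overlapped, and no difference between classes was detectable at this depth. Melanoblast-like cells had 50 WT UMIs, or 19.7 CPM (14.7 to 26.0), and 15 KO UMIs, or 17.6 CPM (9.88 to 29.1), and no difference was detectable at this depth. Glial-like cells had 28 and 17 UMIs and mesenchymal-like cells 16 and 24, with log2 ratios of -0.27 (-1.23 to 0.65) and 0.08 (-0.90 to 1.09). Within the mesenchymal clusters the log2 ratio was -0.67, with 24 KO UMIs against 38.3 expected.

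*Cdkn1c*, the imprinted gene of p57 and the third Cip/Kip gene, is not among the 10 but was read beside them. It had 1770 WT UMIs, or 1640 CPM (1565 to 1718), and 4884 KO UMIs, or 3182 CPM (3093 to 3272), in mesenchymal-like cells, a log2 ratio of 0.96 (0.88 to 1.04). Within the clusters of that class the log2 ratio was 0.28, with 4034 KO UMIs expected from the WT levels. Cluster 3 had 1143 and 1415 CPM, cluster 12 had 3432 and 3853 CPM, and cluster 13 had 4356 and 5955 CPM in WT and KO. Most of the class difference thus went with the larger share of KO cells in clusters 12 and 13, where the gene was high in both libraries. In melanoblast-like cells *Cdkn1c* had 76 WT and 65 KO UMIs, or 30.02 and 76.5 CPM, a log2 ratio of 1.35 (0.85 to 1.85), and within clusters the log2 ratio was 0.96. Glial-like cells, with 683 and 513 UMIs, had a log2 ratio of 0.04 (-0.13 to 0.21). The unnamed cluster, with 38 and 10 UMIs, was lower in KO, at -2.07 (-3.24 to -1.04). Macrophage-like cells showed the same direction as melanoblast-like cells, with 19 WT UMIs, or 32.2 CPM, and 67 KO UMIs, or 391 CPM. Markers of other classes moved with these values. The mesenchymal markers, with *Col1a2* the most abundant, summed to 137 CPM in WT and 595 CPM in KO melanoblast-like cells, with 9 of 9 found in each. In macrophage-like cells they summed to 134 CPM in WT, with 7 of 9 found and *Pdgfra* and *Dpt* at 0, and 2857 CPM in KO, with 9 of 9. The erythroid markers, with 4 of 8 found in WT and 6 of 8 in KO and *Slc4a1* and *Hemgn* at 0 in both, summed to 78.6 CPM in WT and 1120 CPM in KO melanoblast-like cells, with *Hbb-bs* the most abundant. Keratinocyte markers, with *Krt10* the most abundant, summed to 69.9 CPM in WT, with 8 of 9 found and *Trp63* at 0, and 533 CPM in KO, with 7 of 9 found and *Epcam* and *Trp63* at 0. Neutrophil markers, with *S100a8* the most abundant, summed to 35.9 CPM in WT, with 7 of 7 found, and 215 CPM in KO, with 5 of 7 found and *Ltf* and *Retnlg* at 0. The part of free RNA and of doublets in the *Cdkn1c* values was not tested.

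**Figure D1:**
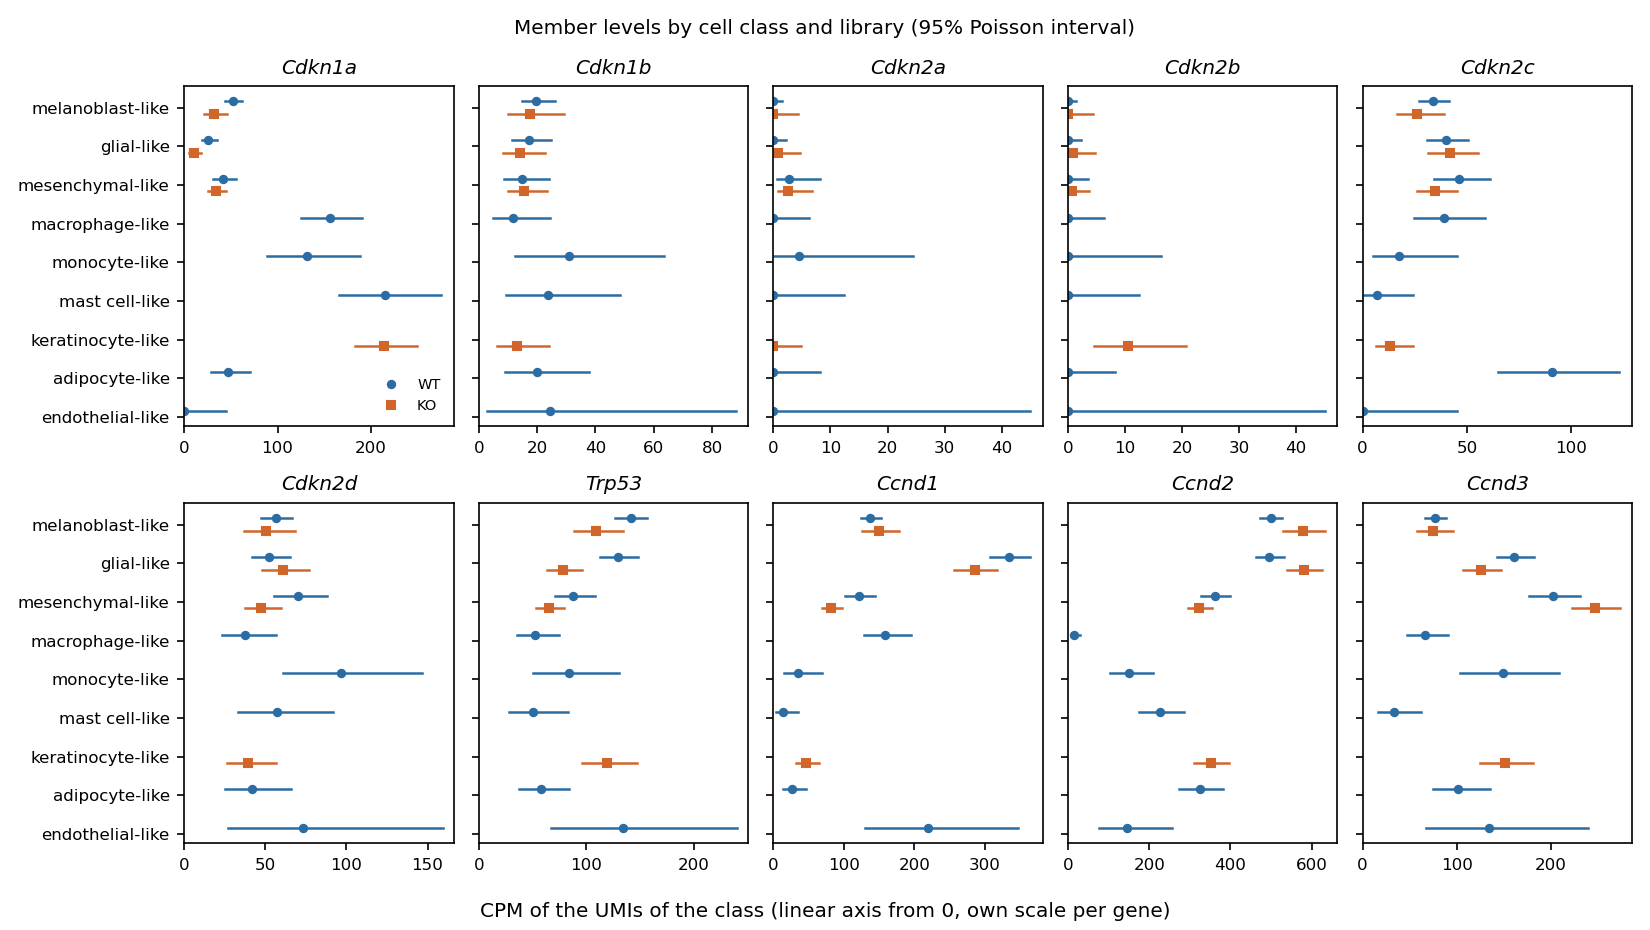
Levels of the 10 genes in CPM of the UMIs of a class (horizontal, linear from 0, with its own scale for each gene) for each cell class (vertical) in WT (blue circles) and KO (orange squares), with 95% Poisson intervals as lines, for classes with at least 20 cells in the library. *Cdkn1a* stands at 215 CPM in mast cell-like and 25.7 CPM in glial-like WT cells, whereas *Ccnd2* stands at 15.2 CPM in macrophage-like and 500 CPM in melanoblast-like WT cells.

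*Cdkn2a* encodes the INK4 inhibitor p16 and, from another promoter and reading frame, ARF, which stabilises p53. The annotated transcripts, at chr4:89274471-89282192 and chr4:89274541-89294653 on the minus strand of GRCm38, share 3′ exons, and 3′ counts cannot tell them apart. The gene had 0 UMIs in 535 WT and 139 KO melanoblast-like cells, which allows up to 1.18 and 3.53 CPM. Mesenchymal-like cells had 3 WT UMIs, or 2.78 CPM (0.573 to 8.12), and 4 KO UMIs, or 2.61 CPM (0.710 to 6.67). Single UMIs were found in KO glial-like and WT monocyte-like cells. *Cdkn2a* was therefore at or near the limit of detection in both libraries, and no difference between them was detectable.

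*Cdkn2b* encodes p15, the INK4 inhibitor induced by TGF-β. It had 0 UMIs in WT and KO melanoblast-like cells, with the same limits of 1.18 and 3.53 CPM, and 10 of its 11 UMIs in all cells came from the KO library. Of these, 8 lay in the 81 KO keratinocyte-like cells, at 10.5 CPM (4.54 to 20.7). The 12 WT keratinocyte-like cells had the 1 WT UMI, at 12.0 CPM (0.305 to 67.1). The KO excess over all cells thus went with the larger number of keratinocyte-like cells in that library.

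*Cdkn2c* encodes p18 and *Cdkn2d* p19, INK4 inhibitors whose transcripts are known to vary with the cell cycle. *Cdkn2c* was highest in adipocyte-like WT cells, at 90.6 CPM (65.0 to 123). Levels in mesenchymal-like WT cells, 46.3 CPM (34.4 to 61.1), glial-like WT cells, 39.7 CPM (30.7 to 50.6), macrophage-like WT cells, 38.9 CPM (24.7 to 58.4), and melanoblast-like WT cells, 33.6 CPM (26.8 to 41.5), overlapped. It was low in mast cell-like WT cells, with 2 UMIs or 6.73 CPM (0.815 to 24.3), and in KO keratinocyte-like cells, at 13.1 CPM (6.31 to 24.2). The KO levels were 25.9 CPM in melanoblast-like, 41.9 CPM in glial-like and 34.5 CPM in mesenchymal-like cells, and the interval of the ratio to WT included 0 in each class.

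*Cdkn2d* was more even across classes. The highest level among classes of at least 20 cells was 96.9 CPM (60.7 to 147), in WT monocyte-like cells, and the lowest was 37.3 CPM (23.3 to 56.4), in WT macrophage-like cells. WT and KO melanoblast-like cells had 56.5 and 50.6 CPM, and glial-like cells 52.5 and 61.1 CPM, with intervals of the ratio that included 0. Mesenchymal-like cells had 76 WT UMIs, or 70.4 CPM (55.5 to 88.2), and 73 KO UMIs, or 47.6 CPM (37.3 to 59.8), which gives a log2 ratio of -0.57 (-1.05 to -0.08). In cluster 3, which holds most of the WT cells of that class, the levels were 77.0 and 48.3 CPM and the log2 ratio was -0.67 (-1.33 to -0.04). Cluster 12, with 5 WT and 36 KO UMIs, had a log2 ratio of 0.16 (-1.19 to 1.87), and within the clusters of the class the log2 ratio was -0.29. The 10 G2M markers moved with *Cdkn2d*. All 10 were found in each library, with *Birc5* the most abundant, and they summed to 1498 CPM in WT and 795 CPM in KO mesenchymal-like cells and to 1695 and 1025 CPM in cluster 3. Their part in the ratio was not tested.

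*Trp53* encodes p53. Among classes with at least 20 cells in the library, its highest levels lay in melanoblast-like, endothelial-like (134 CPM, 67.0 to 240) and glial-like WT cells and in KO keratinocyte-like cells (120 CPM, 96.3 to 147), with overlapping intervals. Its lowest lay in WT mast cell-like cells, at 50.5 CPM (28.3 to 83.3), and WT macrophage-like cells, at 52.5 CPM (35.7 to 74.5). In melanoblast-like cells it had 358 WT UMIs, or 141 CPM (127 to 157), and 93 KO UMIs, or 109 CPM (88.3 to 134). In glial-like cells it had 212 WT UMIs, or 130 CPM (113 to 148), and 94 KO UMIs, or 78.7 CPM (63.6 to 96.3). In mesenchymal-like cells it had 95 WT UMIs, or 88.0 CPM (71.2 to 108), and 100 KO UMIs, or 65.1 CPM (53.004 to 79.2). The KO library was lower in all 3 classes, and each interval of the ratio excluded 0. The log2 ratios were -0.37 (-0.72 to -0.04) in melanoblast-like, -0.72 (-1.09 to -0.36) in glial-like and -0.43 (-0.85 to -0.01) in mesenchymal-like cells.

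*Trp53* was also lower in the KO library against the mix of clusters, by values that carry no interval. Against the KO UMIs expected from the WT level of each cluster, the log2 ratio was -0.54 in melanoblast-like, -0.77 in glial-like and -0.38 in mesenchymal-like cells. Glial cluster 6 had 104 CPM in WT against 46.3 CPM in KO, with a log2 ratio of -1.17 (-2.14 to -0.30). Glial cluster 5, led by *Pou3f1*, had 155 and 68.1 CPM, with a log2 ratio of -1.19 (-2.08 to -0.30). In melanoblast cluster 0 the levels were 173 and 115 CPM and the log2 ratio was -0.60 (-1.08 to -0.12). Glial cluster 9 and mesenchymal cluster 3 differed less, with log2 ratios of -0.06 (-1.41 to 1.12) and -0.14 (-0.68 to 0.38). Mesenchymal clusters 12 and 13, with 8 WT UMIs each, had log2 ratios of -0.52 (-1.64 to 0.80) and -0.82 (-2.23 to 0.68). The interval thus included 0 in every mesenchymal cluster. In melanoblast cluster 1, with 73 WT and 5 KO UMIs, *Trp53* was higher in KO, with a log2 ratio of 0.13 (-1.53 to 1.42). In macrophage-like cells, with 52.5 CPM in WT and 58.3 CPM in KO, no difference was detectable, and the interval of their log2 ratio was wide (-1.04 to 1.22). Whether the classes differ in this ratio was not tested.

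Among 20 genes that p53 is known to activate, 7 had at least 50 UMIs in melanoblast-like, 7 in glial-like and 5 in mesenchymal-like cells. Their median log2 ratio of KO to WT was 0.10, -0.28 and 0.11, where that of all genes with at least 50 UMIs was -0.02, -0.03 and -0.02. Ratios below 0, the side of *Trp53* and *Cdkn1a*, were found for 3 of 7, 5 of 7 and 2 of 5 of the p53 targets. The 2 above 0 in glial-like cells were *Bax* and *Btg2*. *Bax*, which encodes a pro-apoptotic BCL2 family protein, had 219 and 213 CPM in WT and KO melanoblast-like cells, and 202 and 220 CPM in glial-like cells. *Btg2*, an antiproliferative gene that also responds to serum and stress, had 34 WT UMIs, or 20.8 CPM, and 57 KO UMIs, or 47.7 CPM, in glial-like cells, and its log2 ratio of 1.2 (0.56 to 1.86) was opposite in sign to that of *Cdkn1a*. Of 6 regulators of p53, 3 had at least 50 UMIs in melanoblast-like cells, with ratios below 0 for 2 and above 0 for 1. *Chek1*, which encodes a DNA damage checkpoint kinase, had 51 WT UMIs, or 20.1 CPM, and 6 KO UMIs, or 7.06 CPM. Its log2 ratio of -1.51 (-3.02 to -0.29) was past 2-fold, as for 3.36% of 5422 genes in this class. *Usp7*, with 47 and 27 UMIs, had a log2 ratio of 0.77 (0.04 to 1.49). The markers of other classes given with *Cdkn1c* moved in these cells as well, and their part in these ratios was not tested.

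The 3 D cyclins together had 1809 WT and 684 KO UMIs in melanoblast-like cells, 1625 and 1187 in glial-like cells, and 741 and 1003 in mesenchymal-like cells. Their proteins all activate CDK4 and CDK6, and the classes differed in the mix of their transcripts. Because a 3′ tag counts 1 UMI per molecule whatever its length but capture can differ by gene, shares among the 3 genes were compared between classes and not read as protein ratios.

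*Ccnd2*, which encodes cyclin D2, made up 69.9% (67.8 to 72.0) of the D cyclin UMIs of WT melanoblast-like cells and 71.9% (68.4 to 75.3) of those of KO. In WT glial-like cells its share was 50.0% (47.5 to 52.4), with 33.8% (31.5 to 36.1) for *Ccnd1* and 16.2% (14.5 to 18.1) for *Ccnd3*. In WT mesenchymal-like cells *Ccnd2* had 52.8% (49.1 to 56.4), *Ccnd3* 29.6% (26.3 to 33.0) and *Ccnd1* 17.7% (14.998 to 20.6). Among these 3 classes, melanoblast-like cells thus had the largest part of *Ccnd2*, glial-like cells that of *Ccnd1*, and mesenchymal-like cells that of *Ccnd3*. Clusters of a class differed. In WT, *Ccnd2* took 62.9% (58.8 to 66.8) in glial cluster 6 and 17.6% (11.5 to 25.2) in glial cluster 17, against 63.2% (59.2 to 67.2) in melanoblast cluster 2. *Ccnd3* took 25.4% in WT mesenchymal cluster 3, and 55.8% and 57.1% in clusters 12 and 13, from 43 and 56 D cyclin UMIs.

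Immune cells split further. In WT mast cell-like cells *Ccnd2* took 82.7% (72.7 to 90.2) of 81 D cyclin UMIs. In WT macrophage-like cells it took 6.34% (2.94 to 11.7) of 142, and *Ccnd1* took 66.2% (57.8 to 73.9). Monocyte-like WT cells had *Ccnd2* and *Ccnd3* at 34 UMIs each of 76, or 44.7% (33.3 to 56.6). The 7 KO neutrophil-like cells had 14 of 17 D cyclin UMIs from *Ccnd3*. Macrophage-like and mast cell-like cells of the same library thus stood at opposite ends for *Ccnd1* and *Ccnd2*, with intervals that did not overlap.

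**Figure D2:**
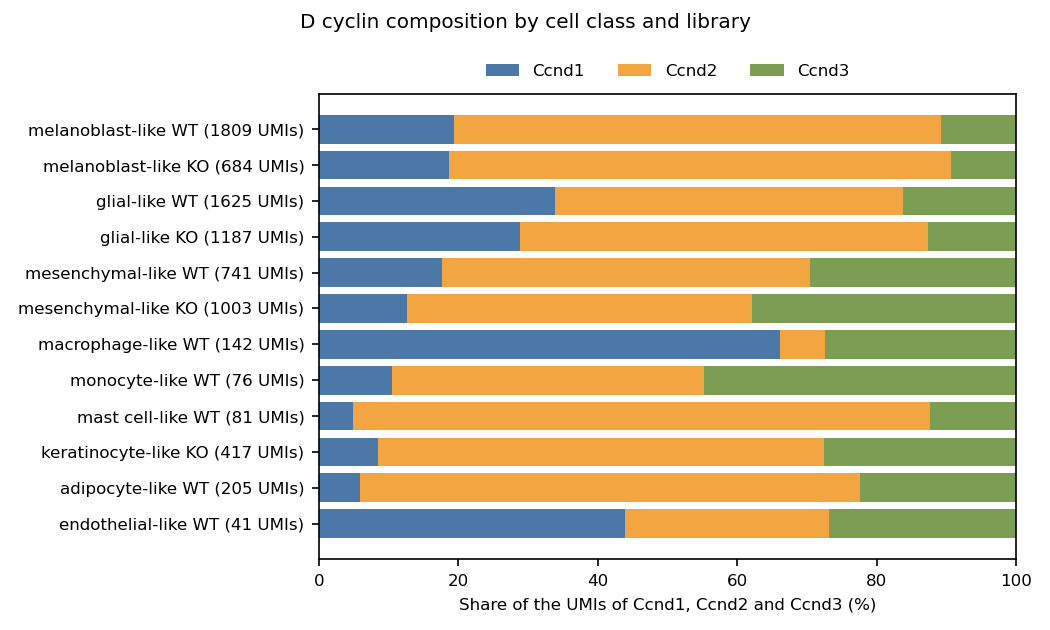
Share in percent (horizontal) of *Ccnd1* (blue), *Ccnd2* (orange) and *Ccnd3* (green) among the UMIs of the 3 genes, for each cell class and library with at least 20 cells (vertical, with the number of UMIs). *Ccnd2* takes 69.9% in WT melanoblast-like and 82.7% in WT mast cell-like cells and 6.34% in WT macrophage-like cells, where *Ccnd1* takes 66.2%.

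*Ccnd2* had 2.36 UMIs per WT melanoblast-like cell and 0.0938 per WT macrophage-like cell, the lowest among WT classes of at least 20 cells. It was found in 80.9% of the former (median 4327 UMIs) and 6.25% of the latter (median 5571.5 UMIs). After thinning to 2000 UMIs the shares were 58.8% of 524 cells (54.4 to 63.0) and 0 of 95, which allows up to 3.16%. *Ccnd1* was lowest in WT mast cell-like cells, with 4 UMIs in 92 cells and a UMI in 4.35% of them, against 59.7% of WT glial-like cells. After thinning these shares were 3.03% of 66 and 42.4% of 410 cells. The shares with *Ccnd2* in WT melanoblast-like cells and with *Ccnd1* in WT glial-like cells thus lay far above those of the lowest WT class. The part of free RNA in these shares was not tested.

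Cells with UMIs of several D cyclins were common. In glial-like cells 53.2% of 447 WT cells and 65.4% of 254 KO cells had UMIs of at least 2 of the 3 genes, and after thinning in 35.1% of 410 and 31.7% of 246. In melanoblast-like cells these shares were 47.9% of WT and 58.3% of KO cells, and 22.3% of each library after thinning. The higher KO shares before thinning were thus not seen at equal depth.

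Between the libraries the D cyclins differed little in melanoblast-like cells. *Ccnd2* had 1265 WT UMIs, or 500 CPM (472 to 528), and 492 KO UMIs, or 579 CPM (529 to 632), which gives a log2 ratio of 0.21 (0.06 to 0.36). Within the clusters of the class this ratio was 0.09, and with at least 500 genes asked of each cell it was -0.18. At that setting 44 of the 61 KO and 158 of the 534 WT cells of the class lay in cycling clusters. *Ccnd1*, which encodes cyclin D1, had 138 and 151 CPM, and *Ccnd3*, which encodes cyclin D3, had 77.0 and 75.3 CPM, with intervals of the ratio that included 0. The small excess of *Ccnd2* in KO melanoblast-like cells thus changed with the processing.

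In glial-like cells *Ccnd1* had 549 WT UMIs, or 335 CPM (308 to 365), and 342 KO UMIs, or 286 CPM (257 to 318), which gives a log2 ratio of -0.23 (-0.43 to -0.03). *Ccnd3* had 161 CPM (142 to 182) in the WT library against 126 CPM (106 to 147) in the KO library, and its log2 ratio was -0.36 (-0.66 to -0.07). The log2 ratio was lowest in cluster 9, at -2.21 (-4.54 to -0.57) from 45 WT UMIs and 3 KO UMIs, followed by cluster 5, at -0.73 (-1.42 to -0.03). In cluster 6 it was above 0, at 0.26 (-0.45 to 0.95), so that the class value joins clusters of both signs. *Ccnd2* had 496 CPM (463 to 531) in the WT library against 582 CPM (539 to 627) in the KO library, and its log2 ratio was 0.23 (0.08 to 0.38). The share of *Ccnd2* was accordingly 50.0% in WT and 58.6% (55.7 to 61.4) in KO. Within the clusters of the class the log2 ratio of *Ccnd2* was 0.09. Cluster 5 had the highest level of the gene in each library and held 43 of the 447 WT and 62 of the 254 KO cells. The ratio of *Ccnd2* varied among the clusters of the class. In cluster 6 it was lower in KO, with 731 and 562 CPM and a log2 ratio of -0.38 (-0.65 to -0.11). In the cycling cluster 17 it was higher, with 23 WT UMIs, or 87.4 CPM, and 48 KO UMIs, or 257 CPM, a log2 ratio of 1.56 (0.81 to 2.34). Cluster 9 was also higher, with 352 and 643 CPM and a log2 ratio of 0.87 (0.26 to 1.46). The ratio over the whole class therefore joins clusters with opposite directions.

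In mesenchymal-like cells *Ccnd1* had 131 WT UMIs, or 121 CPM (102 to 144), and 126 KO UMIs, or 82.1 CPM (68.4 to 97.7), which gives a log2 ratio of -0.56 (-0.93 to -0.20). Cluster 3 had 145 and 115 CPM, with a log2 ratio of -0.33 whose interval (-0.76 to 0.09) included 0. Clusters 12 and 13 had 1 and 2 WT UMIs and 24 and 28 KO UMIs, and with the WT level of each cluster the expected KO UMIs were 105, so that the log2 ratio was 0.27, opposite in sign. *Ccnd3* had 203 CPM (177 to 232) in the WT library against 248 CPM (223 to 274) in the KO library, and its log2 ratio was 0.29 (0.04 to 0.53) in the class and 0.09 within clusters. *Ccnd2* had 362 and 324 CPM, with an interval of the ratio that included 0, but it was lower in KO in cluster 3 (397 and 332 CPM, log2 ratio -0.26, -0.51 to -0.01) and higher in cluster 12 (181 and 321 CPM, 0.82, 0.13 to 1.61). In cluster 3 *Ccnd3* had 184 and 182 CPM, with a log2 ratio of -0.02 (-0.37 to 0.33), and for both *Ccnd1* and *Ccnd3* the interval there included 0 and the value of the class.

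In KO keratinocyte-like cells *Ccnd2* was found in 44.4% of 81 cells, with 3.296 UMIs per cell, at 351 CPM (310 to 396). The 12 WT keratinocyte-like cells had 62 UMIs, or 747 CPM (573 to 958), and the log2 ratio was -1.09 (-1.49 to -0.67). Class markers moved with it. Melanoblast markers, with 6 of 8 found in each library, *Tyrp1* and *Gpr143* at 0 and *Dct* the most abundant, summed to 1217 CPM in WT and 209 CPM in KO keratinocyte-like cells. Keratinocyte markers, with 9 of 9 found in each and *Krtdap* the most abundant in WT and *Krt10* in KO, summed to 22096 and 40100 CPM. Their part in the ratio was not tested. With so few WT cells, a different mix of keratinocyte states in the 2 libraries cannot be told from a difference in level.

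**Figure D3:**
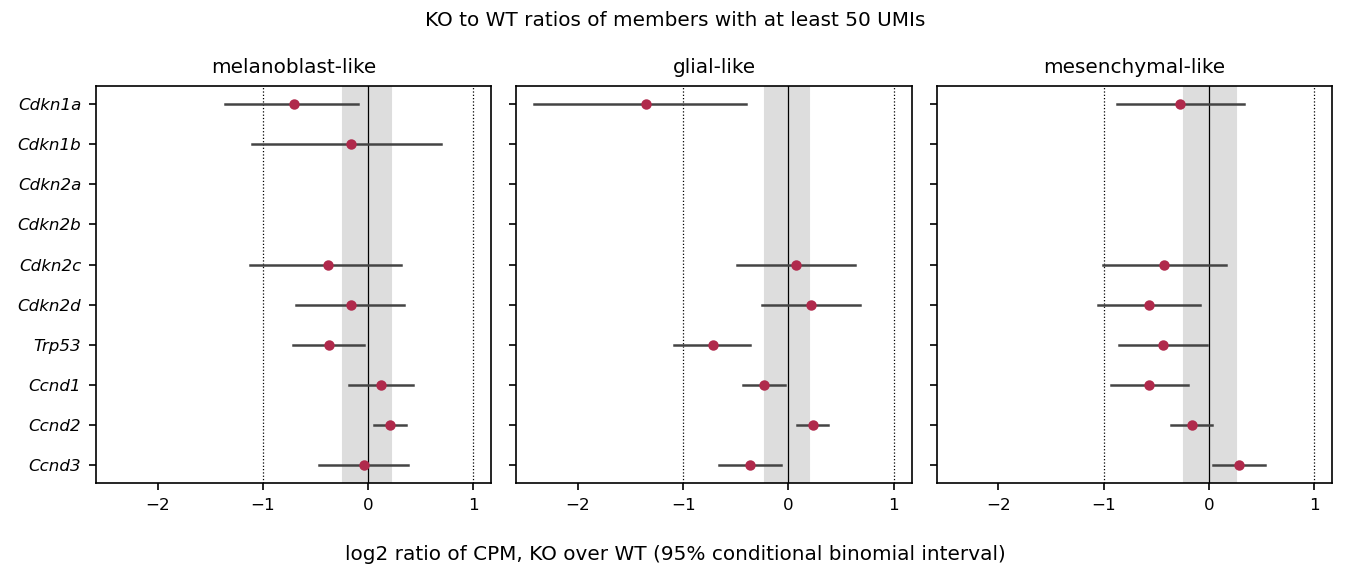
Log2 ratio of KO to WT CPM (horizontal) of each gene with at least 50 UMIs (vertical) in melanoblast-like, mesenchymal-like and glial-like cells (panels), with 95% conditional binomial intervals as lines, the middle 50% of all genes with at least 50 UMIs as a grey band, and dotted lines at the 2-fold limits. *Cdkn1a* in glial-like cells, at -1.35, is the one point past a dotted line, and *Trp53* lies left of 0 in each panel.

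Against all genes, few of the 10 genes stood out in size. A gene counted as past 2-fold when its log2 ratio was at least 1 in either direction and it had at least 50 UMIs in the class over both libraries. In melanoblast-like cells 8 of the 10 had enough UMIs and 0 were past 2-fold, where 3.36% of 5422 genes were. In glial-like cells 7 had enough and 1, *Cdkn1a* with 54 UMIs, was past 2-fold, against 2.74% of 5684 genes. In thinned cells and with at most 5% mitochondrial UMIs it had 26 and 46 UMIs, too few to be counted, at log2 ratios of -2.85 and -1.13. In mesenchymal-like cells 7 had enough and 0 were past 2-fold, against 4.97% of 5114 genes. These counts of at most 1 gene are too small to be read against the shares of all genes, and the differences above are mostly under 2-fold. The median log2 ratio of the genes with enough UMIs was -0.16, -0.23 and -0.42 in these classes, where that of all genes was -0.02, -0.03 and -0.02. Ratios below 0 were found for 6 of 8, 4 of 7 and 6 of 7 of them.

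The other genes of the pathway were mostly within 2-fold as well. Of 5 related CDK inhibitors and CDKs, *Cdkn1c* was past 2-fold and higher in KO melanoblast-like cells, and *Cdkn3*, a phosphatase gene expressed in dividing cells, was past 2-fold and lower in KO mesenchymal-like cells. *Cdkn3* had 71 WT UMIs, or 65.8 CPM, and 48 KO UMIs, or 31.3 CPM, there, a log2 ratio of -1.07 (-1.63 to -0.52). The G2M markers, given above with *Cdkn2d*, moved with it as well, and their part in its ratio was not tested either. *Cdk4*, the partner of the D cyclins, had 610 and 602 CPM in WT and KO melanoblast-like cells. *Cdk6*, the other partner, had at least 50 UMIs in glial-like cells, with 86.8 and 70.3 CPM, and in mesenchymal-like cells, with 22.2 and 22.1 CPM, but not in melanoblast-like cells. Of 15 RB and E2F genes, 3 had at least 50 UMIs in melanoblast-like cells and 4 each in glial-like and mesenchymal-like cells, and 0 were past 2-fold. Of 8 genes of D cyclin and inhibitor turnover and MYC, 4 had at least 50 UMIs in melanoblast-like cells, with ratios above 0 for 3 of them. *Fbxw7*, which encodes a ubiquitin ligase subunit, was past 2-fold and lower in KO there. It had 46 WT UMIs, or 18.2 CPM, 5 KO UMIs, or 5.88 CPM, and a log2 ratio of -1.63 (-3.32 to -0.30).

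Cycling clusters were defined from 10 G2M markers, and the 10 genes were not used. The melanoblast-like class had cluster 2, with 32.0% (28.0 to 36.1) of its WT and 30.9% (23.4 to 39.3) of its KO cells. The glial-like class had cluster 17, with 14.1% (11.003 to 17.7) of its WT and 13.4% (9.45 to 18.2) of its KO cells. The mesenchymal-like class had no such cluster. These sets depend on the clustering. At a Leiden resolution of 2, cycling clusters held 40 of the 534 melanoblast-like cells in WT and 7 of the 139 in KO, and 59 and 31 mesenchymal-like cells. With each library clustered alone the melanoblast-like numbers were 63 of 538 and 39 of 140. With at least 500 genes asked of each cell they were 158 of 534 and 44 of 61. The likeness of the shares in WT and KO is therefore not a stable result.

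The INK4 genes *Cdkn2c* and *Cdkn2d* were higher in cycling cells. *Cdkn2c* had 61.5 CPM in cycling and 12.5 CPM in other WT melanoblast-like cells, which gives a log2 ratio of 2.30 (1.53 to 3.14), and 50.9 and 9.69 CPM in KO, a ratio of 2.39 (0.89 to 4.19). In glial-like cells it had 106 and 26.9 CPM in WT, a log2 ratio of 1.98 (1.22 to 2.73), and 118 and 27.8 CPM in KO, a ratio of 2.09 (1.21 to 2.94). The 4 ratios lay close together, and each interval excluded 0. *Cdkn2d* had 95.4 and 27.0 CPM in WT melanoblast-like cells, which gives a log2 ratio of 1.82 (1.27 to 2.39), and 80.8 and 31.0 CPM in KO, a ratio of 1.38 (0.44 to 2.37). In glial-like cells its log2 ratio was 0.75 (-0.03 to 1.48) in WT and 1.12 (0.32 to 1.88) in KO, and at a Leiden resolution of 0.5 the KO value was -0.0425.

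*Cdkn1a* and *Ccnd2* went the other way in melanoblast-like cells. *Cdkn1a* had 21.1 CPM in cycling and 74.9 CPM in other WT melanoblast-like cells, which gives a log2 ratio of -1.83 (-2.54 to -1.17). In KO it had 2 UMIs, or 5.98 CPM, and 25 UMIs, or 48.5 CPM, a log2 ratio of -3.02 (-6.14 to -1.01). With 5 and 3 UMIs of *Cdkn1a* in the cycling glial-like cells of WT and KO, no difference was detectable there. *Ccnd2* had 339 and 621 CPM in WT melanoblast-like cells, which gives a log2 ratio of -0.87 (-1.05 to -0.69), and 380 and 708 CPM in KO, a ratio of -0.90 (-1.20 to -0.60). In WT glial-like cells it had 87.4 CPM in cycling and 574 CPM in other cells, a log2 ratio of -2.72 (-3.38 to -2.12), and in KO 257 and 642 CPM, a ratio of -1.32 (-1.77 to -0.90). The intervals of these glial-like ratios did not overlap, but at a Leiden resolution of 0.5 the values were -0.35 in WT and 0.41 in KO, where the cycling glial-like cells numbered 108 in place of 63 and 89 in place of 34. The other glial-like cells include cluster 5, where the G2M markers summed to 1965 CPM in WT and 1504 CPM in KO and *Ccnd2* had 769 and 904 CPM, the highest of the class.

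*Trp53* and *Ccnd3* differed less between cycling and other cells. For *Trp53* the log2 ratios were 0.08 (-0.23 to 0.39) in WT and -0.17 (-0.82 to 0.46) in KO melanoblast-like cells, and both intervals included 0. In glial-like cells they were 0.23 (-0.31 to 0.74) and 0.72 (-0.04 to 1.43). *Ccnd3* had log2 ratios of -0.43 and -0.02 in melanoblast-like cells of WT and KO and of 0.14 and 0.11 in glial-like cells, with intervals that included 0. *Cdkn1b* had 31 UMIs, or 28.4 CPM, in cycling and 19 UMIs, or 13.2 CPM, in other WT melanoblast-like cells, which gives a log2 ratio of 1.11 (0.24 to 2.02), and in KO, with 7 and 8 UMIs, no difference was detectable. *Ccnd1* was lower in cycling WT glial-like cells, with 236 and 355 CPM and a log2 ratio of -0.59 (-0.996 to -0.21). The inhibitors were thus not alike: *Cdkn2c*, *Cdkn2d* and, in WT, *Cdkn1b* were higher in cycling melanoblast-like cells and *Cdkn1a* was lower.

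**Figure D4:**
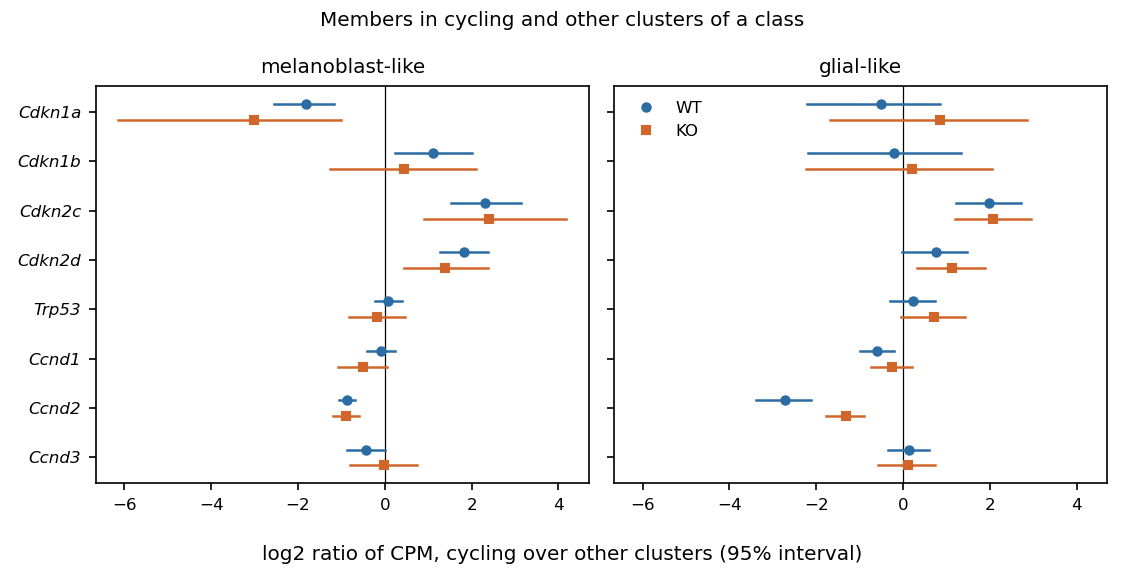
Log2 ratio of CPM in cycling over other clusters (horizontal) for 8 of the 10 genes (vertical) in melanoblast-like and glial-like cells of WT (blue circles) and KO (orange squares), with 95% intervals as lines. *Cdkn2c* lies between 1.98 and 2.39 in the 4 sets of cells, and *Ccnd2* lies between -2.72 and -0.87.

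Promoter sequences of 8 of the 10 genes were found in the RefSeq table for GRCm38.p6, and none for *Ccnd1* and *Ccnd2*. Because *Cdkn2c* and *Cdkn2d* were higher in cycling cells and *Cdkn1a* and *Trp53* were lower in KO, the 250 bases before each start were searched on both strands for the E2F core TTCCCGC and for the p53 consensus decamer. The E2F core was found in the windows of *Cdkn2c* and *Cdkn2a* and not in that of *Cdkn2d*, and 4.60% of all 32851 promoters hold it. The p53 decamer was found in the windows of *Cdkn1a*, *Cdkn2d* and *Trp53*, and 8.36% of all promoters hold it. Both shares are of single promoters, whereas *Cdkn1a*, *Cdkn2a*, *Cdkn2c* and *Ccnd3* had 2 promoters each. The genes found are therefore not compared with these shares. A match describes these letters and is not evidence of binding. The first sequence shows the *Cdkn2c* match, 25 bases before a RefSeq start, on the minus strand at chr4:109666757-109666811. It lies inside the longer annotated transcript of the gene, chr4:109660876-109667189, and upstream of the shorter one, which starts at chr4:109665372. The second shows the *Cdkn1a* match 51 bases before a RefSeq start, on the plus strand at chr17:29090898-29090967. Other annotated transcripts of *Cdkn1a* start further downstream, the nearest of them at chr17:29093769. Capitals mark the match.
Cdkn2c: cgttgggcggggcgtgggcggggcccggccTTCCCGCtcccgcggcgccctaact
Cdkn1a: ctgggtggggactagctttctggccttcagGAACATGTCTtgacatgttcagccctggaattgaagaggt

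For those of the 10 with at least 100 UMIs, the genes most like them in level were read over 12 profiles among 5713 genes. The profiles were classes and libraries with at least 20 cells. *Cdkn2a* and *Cdkn2b* had fewer UMIs and were not compared. *Ccnd1* was most like *Tax1bp3* (Pearson r 0.97), *Ccnd2* most like *Mrpl13* (0.93) and *Ccnd3* most like *S100a10* (0.95). *Trp53* was most like *Ptma* (0.93), *Cdkn1a* most like *Hk2* (0.92) and *Cdkn2c* most like *Ccdc90b* (0.96). The values for *Cdkn1b*, with *Pop7*, and for *Cdkn2d*, with *Sept1*, were 0.89 and 0.86. The profiles share 2 libraries and differ in depth, so that these values are descriptions.

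In the GENCODE M21 annotation of GRCm38, *Ccnd1* (ENSMUSG00000070348, chr7:144929931-144939925), *Ccnd2* (ENSMUSG00000000184, chr6:127125162-127152193), *Ccnd3* (ENSMUSG00000034165, chr17:47505051-47599691) and *Cdkn1a* (ENSMUSG00000023067, chr17:29090976-29100727) overlap other genes on the opposite strand. The supplement of the study lists antisense reads in a category of their own, and whether any of them entered the counts of these 4 genes was not tested. *Trp53* (ENSMUSG00000059552, chr11:69580359-69591873), *Cdkn1b* (ENSMUSG00000003031, chr6:134920401-134925513), *Cdkn2b* (ENSMUSG00000073802, chr4:89306299-89311039), *Cdkn2c* (ENSMUSG00000028551, chr4:109660876-109667189) and *Cdkn2d* (ENSMUSG00000096472, chr9:21288410-21291407) have no overlapping gene there, and neither has *Cdkn2a* (ENSMUSG00000044303).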

How the data were processed

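The authors made the counts, UMIs of each gene in each barcode, with Cell Ranger 2.2.0 on mm10 with added tdTomato and Cre sequences, for barcodes called as cells, and deposited these raw counts for each library. Barcodes with under 100 genes, over 40000 UMIs or over 10% mitochondrial UMIs were left out (6 WT and 18 KO). After scaling of each cell to 10000 and a log transform, 1991 of 2000 variable genes, after 79 genes had been held out (the 10 genes, their pathway lists, HIRA and H3.3 genes, sex-linked genes and reporters), were used for 30 principal components, 15 neighbours and Leiden clustering at resolution 1 with seed 0. Clusters were named from 14 lists of 6 to 10 markers, a marker being raised where 10% of cells had a UMI and its CPM plus 10 exceeded that of other cells by 1 or more on the log2 scale, with at least 3 raised. A cluster was cycling with at least 5 of 10 G2M markers raised. The 9 WT and 6 KO doublets that Scrublet called were kept. Intervals are exact Poisson for CPM, Clopper-Pearson for shares and conditional binomial for ratios. A count of 0 gets the limit of 3 counts. Thinning to 2000 UMIs left out 102 WT and 23 KO cells. No test was made, with 1 library per genotype. Besides the 10 genes, those named are pathway genes past 2-fold with at least 50 UMIs, *Cdkn1c*, *Hira*, sex-linked genes, class markers and, for likeness, genes with at least 200 UMIs compared by Pearson r of log2(CPM + 10). *Bax*, *Cdk4*, *Cdk6* and the genes that lead clusters were named after their values were seen. The interval and ratio steps were tested on simulated data. The genes and lists were chosen with earlier results of these data known. The alternatives are given in the closing section. Software was scipy 1.17.1, numpy 2.4.6, pandas 2.3.3, scanpy 1.11.5, igraph 0.11.9, anndata 0.12.19 and matplotlib 3.10.9, under Python 3.11.15.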

Additional observations from a re-analysis of the deposited data

Results flagged for a closer look

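*Ccnd3* had KO to WT ratios of opposite sign in 2 classes, each with an interval that excluded 0. The log2 ratio was -0.36 in glial-like cells and 0.29 in mesenchymal-like cells. In glial-like cells the ratio was above 0 in cluster 6, at 0.26, and lowest in cluster 9, at -2.21. The difference between the classes was not tested. In mesenchymal-like cells the ratio was 0.09 within clusters and 0.0305 when each library was clustered alone, which left 124 of the 260 KO cells of that class in clusters without a name.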

How the results depend on the processing

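Each choice was changed on its own. KO to WT ratios were counted only if the main value rested on 50 UMIs or more. *Cdkn1b* in mesenchymal-like cells, with 40 UMIs, was thus not counted. Its log2 ratio of 0.08 became 1.46 in thinned cells, from 13 UMIs, beyond its interval (-0.90 to 1.09). Ratios of cycling to other clusters were counted for *Cdkn1a*, *Cdkn2c*, *Cdkn2d* and *Ccnd2*. Of the KO to WT ratios counted, 233 kept their value within its interval, 7 moved beyond it and 2 reversed. Of the cycling ratios counted, 129, 7 and 2 did so. Reversed means a change of sign where the interval of the main value excluded 0. Where it included 0, the sign changed for 8 further KO to WT ratios and 3 further cycling ratios. Of the levels in CPM, 515 stayed within their interval and 25 moved beyond it, among them *Cdkn1a* in KO melanoblast-like cells (31.8 to 14.5 with at least 500 genes) and, in thinned cells, *Cdkn1b* in KO glial-like (14.2 to 6.10) and *Cdkn2a* in KO mesenchymal-like cells (2.61 to 7.84). With at least 500 genes per cell, 78 of the 139 KO melanoblast-like cells fell in an unnamed cluster. Haemoglobin genes led it, with *Trpm1*, *Ptgds* and *Pmel* also among its 10 leading genes. A cluster stays unnamed where more of its leading genes are markers of another class. The melanoblast-like class then held 61 KO cells. Of these 61, 44 lay in cycling clusters, against 158 of 534 in WT. The melanoblast-like log2 ratios were then -1.80 for *Cdkn1a*, 0.40 for *Cdkn2d*, -0.24 for *Ccnd1* and -0.18 for *Ccnd2* (reversed). At that setting 1 of the 10 genes and 6.16% of all genes were past 2-fold in this class. In cells thinned to 2000 UMIs the ratio was 0.0057 for *Ccnd2* in melanoblast-like and -2.85 for *Cdkn1a* in glial-like cells, 0 of the 10 genes counted as past 2-fold in glial-like cells because *Cdkn1a* had 26 UMIs, the share of *Ccnd2* was 46.6% in WT glial-like and 45.0% in KO mesenchymal-like cells, and the cycling ratio of *Ccnd2* was -1.19 in WT melanoblast-like and -0.89 in KO glial-like cells. At 1.5-fold, 1 and 2 of the 10 genes were past the limit in melanoblast-like and glial-like cells, against 13.4% and 11.8% of all genes (17.0% in mesenchymal-like cells). With genes of at least 20 UMIs, 8.06%, 6.41% and 8.97% of all genes were past 2-fold in these 3 classes, in this order. With at most 5% mitochondrial UMIs, 0 of the 10 counted as past 2-fold in glial-like cells because *Cdkn1a*, at -1.13, had 46 UMIs, under the 50 asked. Leiden resolution 2 gave cycling ratios of -4.14 for *Cdkn1a* and -0.52 for *Ccnd2* in WT melanoblast-like cells. At resolution 0.5 cycling glial-like cells numbered 108 in WT and 89 in KO, in place of 63 and 34, and the cycling ratios were -0.35 for *Ccnd2* in WT and -1.76 for *Cdkn1a*, -0.0425 for *Cdkn2d* (reversed) and 0.41 for *Ccnd2* (reversed) in KO. With each library clustered alone, the cycling ratio of *Ccnd2* in WT melanoblast-like cells was -0.59, the ratio of *Ccnd3* in mesenchymal-like cells 0.0305, and 2.95% of all genes were past 2-fold there. Within clusters, an alternative chosen after seeing the data, the mesenchymal-like ratio was 0.27 for *Ccnd1* (reversed) and 0.21 for *Ccnd2*. Causes not stated were not tested. Leaving out doublets, holding out S and G2M markers from the clustering and centring on the median gene moved 0 of these values beyond their intervals. No paired analysis was possible because there was 1 library per genotype. Depth limits *Cdkn2a*, *Cdkn2b* and *Cdkn1b*, and free RNA limits low shares of cells.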
